A study of Mus musculus with 10 samples.

Results

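The comparison described here is that of mouse embryonic fibroblasts (MEFs) carrying FoxO6 with MEFs carrying DsRed at day 0 of reprogramming, the first sample of a time course. Its members were the genes with at least 10 expected counts in the higher of the 2 day 0 libraries, and 11410 of 50600 genes qualified. MEFs of the strain CBA/CaJ X C57BL/6J were taken at E13.5, and both arms received the reprogramming factors Oct4, Klf4 and Sox2 (OKS) by retrovirus from PlatE packaging cells. One arm received FoxO6 as well and the other the red fluorescent protein DsRed, and the protocol moved both into iCD1, a chemically defined induction medium, after infection. Whether the day 0 cells were taken before or after the last infection and the change of medium is not given in the sources used here. The study's methods describe the MEFs as carrying an Oct4-GFP reporter. The sources used here give neither the share of cells infected nor the number of embryos or cultures behind each library.

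An mRNA-seq library made from total RNA was sequenced for each arm at days 0, 1, 3, 5 and 7. The day 0 pair held the shallowest of the 10 libraries, OKS + DsRed with 1208379 expected counts, and the deepest, OKS + FoxO6 with 2225750. With 1 library a side no difference has a replicate check, so each gene received an exact test of whether its reads were split between the libraries as their sizes predict. This exact read test compares 2 libraries, not the conditions. A gene was called where the test gave an adjusted p under 0.05 and the difference in log2(TPM + 1) between FoxO6 and DsRed was at least 1, which is 2-fold. TPM is the authors' estimate of a gene's share of all transcripts, corrected for transcript length.

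FoxO factors are the forkhead proteins at the end of the insulin pathway. When insulin or growth factor signalling is low they act in the nucleus on genes for stress resistance, cell cycle arrest, autophagy and metabolism, and active Akt, the kinase downstream of the receptors, inhibits them. FoxO6 is the member best known from brain, and unlike its relatives it moves little between nucleus and cytoplasm. Reprogramming of fibroblasts calls for fast cell division and a shift from a mesenchymal to an epithelial state.

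The level of Foxo6 itself matched the labels. Foxo6 (chr4:120267079-120287349, minus strand, GRCm38) had 0.61 TPM, a single read, in OKS + DsRed and 1017 TPM, from 2862 reads, in OKS + FoxO6. In CPM, the read count scaled to library size, this is a ratio of 1579, with a 95% counting interval from 283 to 62380 that covers counting error only. The factors given to both arms lay closer together. Pou5f1, which encodes Oct4, had 2560 TPM in DsRed and 3386 TPM in FoxO6, Klf4 had 1329 and 1958 TPM, and Sox2 had 1814 and 2181 TPM. Their log2 differences were 0.40, 0.56 and 0.27, and none of the 3 was called.

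Fibroblast markers were high in both libraries. All 18 fibroblast markers were measured, with Col1a1 at 1354 and 1087 TPM, Vim at 3636 and 2904 TPM and Fn1 at 1486 and 2161 TPM in DsRed and FoxO6. Their summed level was 11570 TPM in DsRed and 11130 TPM in FoxO6, and 1 of them, Pdgfra, was called higher (16.5 and 35.2 TPM), though not with the length trend described below removed. Of the 15 macrophage markers 13 had at most 3 reads in each library, and of the 10 erythroid markers 9 did. The exception among the erythroid markers was the embryonic globin Hbb-y, with 181 TPM in DsRed and 75.1 TPM in FoxO6. In bulk RNA, fewer cells of one type and less RNA per cell cannot be told apart.

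Of the 11410 genes, 772 were called (6.77%). There were 534 called higher in FoxO6 (4.68%) and 238 called lower (2.09%), while 60.2% of the genes lay above 0 by any amount and 39.8% below. The 2-fold threshold alone was passed by 11.8%, 8.4% on the higher side and 3.39% on the lower, and the exact read test alone by 22.5%. The share past 2-fold alone went with the number of reads. In the fifth of the genes with fewest reads (median 26 in both libraries together) 29.0% did and in the fifth with most (median 600) 4.08%, against 9.77% and 4.08% called. The larger number on the higher side depended on how transcript length, described below, was treated. With the length trend removed 302 genes were called higher and 277 lower, and with the difference centred on the median gene 413 and 316. Higher calls were thus 69.2% of all calls in TPM, 52.2% with the trend removed, 56.7% with centring and 79.8% among genes with at least 30 reads.

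**Figure D1:**
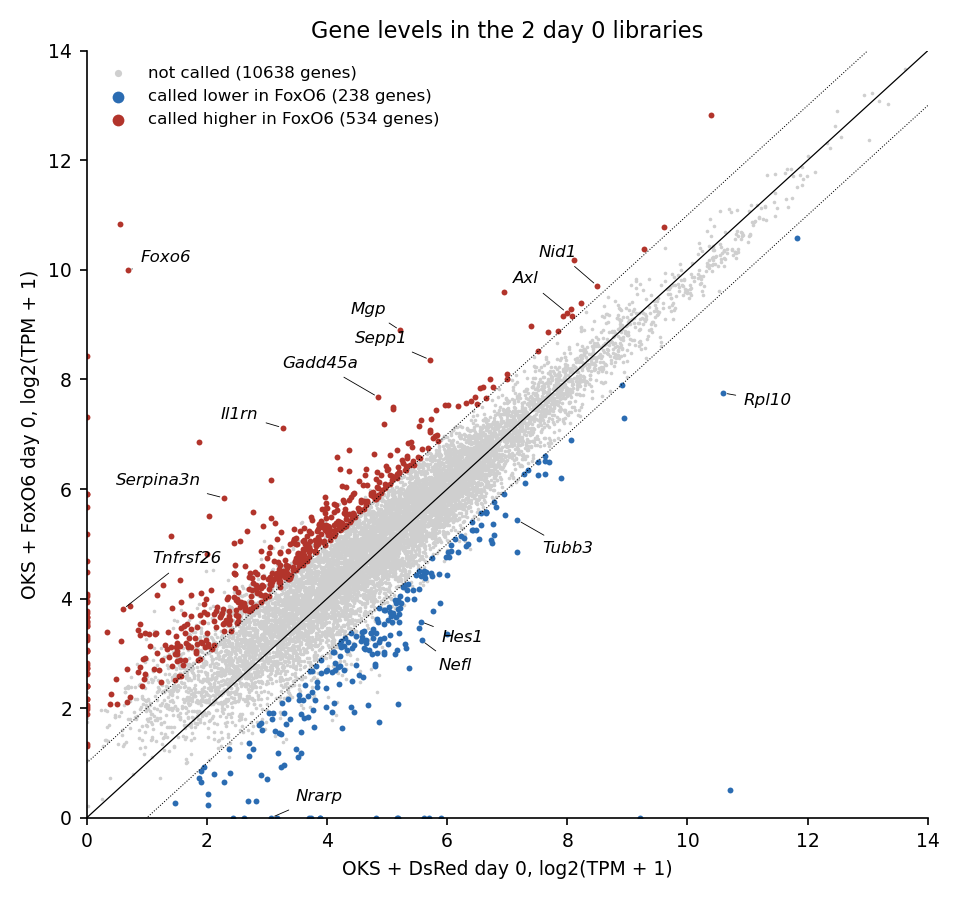
Each point is 1 of 11410 genes, placed by log2(TPM + 1) in OKS + DsRed (x axis) and OKS + FoxO6 (y axis) at day 0, with 1 library per arm. The solid line marks equality and the dotted lines a difference of 1. The 534 genes called higher (red) lie above the upper dotted line, with Foxo6 far above it at 0.61 and 1017 TPM, and the 238 called lower (blue) lie below the lower one.

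An error for each gene could be had only from a model over all 10 libraries, in which the spread comes from how far the arms differ from day to day after day 0. In this edgeR quasi-likelihood fit with Benjamini-Hochberg adjustment, 2 of 11028 genes differed at day 0 (0.0181%), both higher in FoxO6. They were Foxo6 itself, with a log2 fold change of 10.45 (SE 0.47) and an adjusted p of 3.81e-06, and Sepp1, with a log2 fold change of 2.56 (SE 0.32) and an adjusted p of 0.0499, and 952 genes had an unadjusted p under 0.05 (8.63%). Sepp1 lost its call with RLE size factors in place of TMM, and also without the day 1, day 3 or day 5 pair. The gene-level values below therefore describe these 2 libraries.

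Of 32 insulin and IGF genes tested, the receptor genes Insr and Igf1r were called higher (6.25%, against 4.68% of all genes) and 0 were called lower. Insr, the insulin receptor, had 4.72 TPM in DsRed and 14.4 TPM in FoxO6, a difference of 1.43 (exact read test, adjusted p = 3.9e-05). Igf1r, the receptor for insulin-like growth factors, had 17.9 and 40.9 TPM, a difference of 1.15. Both have long transcripts, and neither was called with the length trend removed, where the differences were 0.95 and 0.62. The adaptors Irs1 (9.05 and 15.7 TPM) and Irs2 (24.0 and 42.7 TPM), which pass the signal from the receptor, were not called. Downstream, the kinase gene Akt1 had 387 and 394 TPM and Akt2 had 77.2 and 120 TPM. Of the secreted members, the ligand Igf2 had 1172 and 1439 TPM and the binding protein Igfbp3 1459 and 1080 TPM. Of the 32 genes 26 lay above 0, against 60.2% of all genes, and the median difference was 0.45 against 0.13 for all genes tested. With the length trend removed the medians were 0.16 and -0.01, and 0 of the 32 were called higher and 1 lower.

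Of 48 genes listed as FoxO targets 38 were tested, of which 8 were called higher (4.68% of all genes) and 1 lower (2.09%). Their median difference was 0.65, which is 0.51 above that of all genes, and 0.44 with the length trend removed, and 32 of the 38 lay above 0. In the edgeR model 12 had an unadjusted p under 0.05 on the higher side (4.59% of all genes) and 1 on the lower (4.04%). The list was put together with earlier results of these data known, so its direction is no independent evidence. Several of the called members act in the response to stress. Sepp1 (chr15:3268547-3280508, plus strand), now named Selenop, encodes selenoprotein P, the secreted carrier of selenium, and had 51.7 TPM in DsRed and 327 TPM in FoxO6, a difference of 2.64. Gadd45a, which acts in DNA repair and growth arrest, had 27.9 and 204 TPM, a difference of 2.83. Sesn3, a sestrin that restrains the growth kinase complex mTORC1, had 9.94 and 32.6 TPM. Each of these 3 was called with the length trend removed too.

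Among the other FoxO targets, the 8 genes of cell cycle arrest lay above 0 in 7 (60.2% of all genes), with a median difference of 0.66. Of the 8, 1 was called higher (4.68% of all genes). Cdkn1c, a CDK inhibitor, had 17.0 TPM in DsRed and 48.3 TPM in FoxO6 and was the one called. Over all 7 CDK inhibitor genes tested the median was -0.39, with 4 below 0 (39.8% of all genes) and 1 called higher. Called lower were 2 (2.09% of all genes), Cdkn2c (27.9 and 10.9 TPM) and Cdkn2d (27.3 and 9.35 TPM). The better known inhibitor genes were not called, Cdkn1a, the one of the 8 arrest genes below 0, having 674 and 513 TPM and Cdkn1b 16.5 and 18.9 TPM. In metabolism and feedback, Cited2, a transcriptional cofactor, was called higher with 51.7 and 134 TPM, as were Rictor (9.04 and 22.6 TPM) and Tsc1 (8.73 and 20.4 TPM), which encode regulators of mTOR. The calls of Rictor and Tsc1, like that of Insr, did not hold with the length trend removed. Lpl, lipoprotein lipase, was the member called lower, with 84.1 and 36.9 TPM. The antioxidant genes Sod2 (23.04 and 31.1 TPM) and Cat (129 and 171 TPM) and the cell death gene Bcl2l11 (4.70 and 11.1 TPM) were not called.

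**Figure D2:**
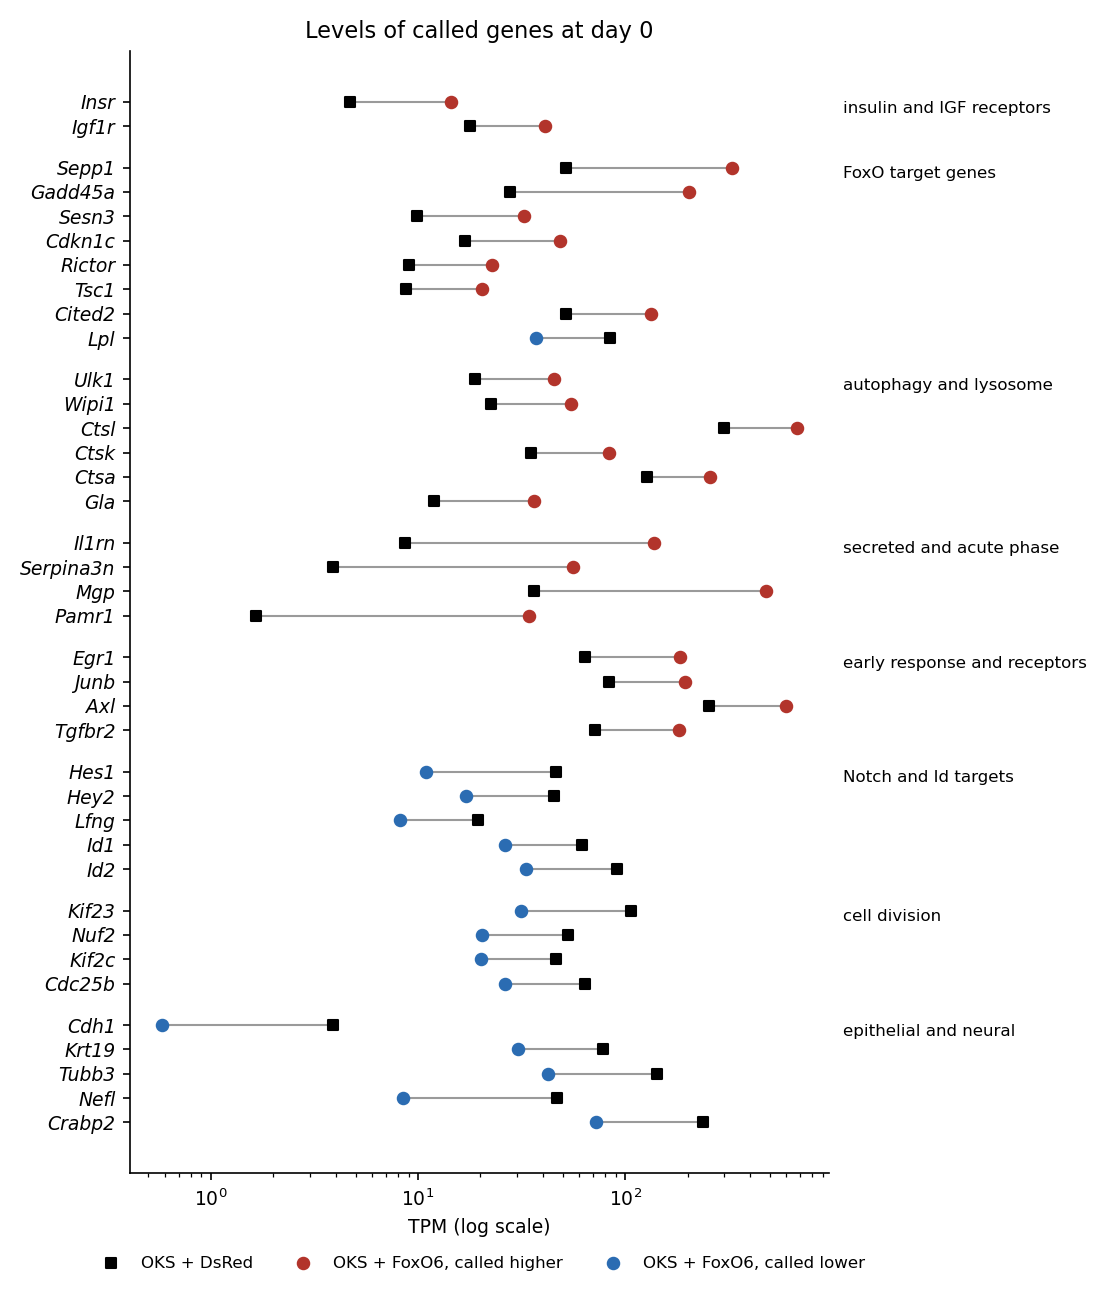
TPM on a log scale (x axis) of 38 called genes in 8 groups at day 0, with OKS + DsRed as squares and OKS + FoxO6 as circles, red where called higher and blue where called lower, 1 library per arm and no error bars. Pamr1 (1.66 and 34.3 TPM) and Il1rn (8.61 and 138 TPM) show wide gaps among the genes called higher, and Cdh1 (3.90 and 0.58 TPM) and Nefl (46.7 and 8.44 TPM) among those called lower.

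FoxO proteins bind a short core written GTAAACA, and the promoters were searched for it. RefSeq windows of GRCm38.p6 reach from 250 bases before to 50 bases after a transcript's start, and 8906 of the 11410 genes had one. GTAAACA, or TGTTTAC on the other strand, stood in 3.65% of all 32851 windows and in 4.05% of the 27025 genes these windows belong to. It stood in 15 of 373 genes called higher (4.02%), in 5 of 168 called lower (2.98%) and in 2.95% of the 8897 RefSeq genes matched to a tested gene. A related letter string, CAAAACA or TGTTTTG, stood in 8.31% of the genes called higher, in 4.76% of those called lower and in 5.05% of the same 8897 genes. Among the genes called higher that also stayed 2-fold apart on every later day, 4 of 36 with a window held GTAAACA, and 0 of 15 of those called lower. These 4 are shown because their differences lasted from day 0 to day 7. In each line, read 5′ to 3′, the capitals mark the match.

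Axl, chr7:25788734-25788983, minus strand, 250 bases up to the start: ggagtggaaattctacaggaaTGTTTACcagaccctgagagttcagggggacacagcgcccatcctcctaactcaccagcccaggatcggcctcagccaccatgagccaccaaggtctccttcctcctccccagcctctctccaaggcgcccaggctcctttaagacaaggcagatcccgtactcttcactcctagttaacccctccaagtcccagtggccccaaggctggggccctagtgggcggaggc
Cck, chr9:121495695-121495944, minus strand, 250 bases up to the start: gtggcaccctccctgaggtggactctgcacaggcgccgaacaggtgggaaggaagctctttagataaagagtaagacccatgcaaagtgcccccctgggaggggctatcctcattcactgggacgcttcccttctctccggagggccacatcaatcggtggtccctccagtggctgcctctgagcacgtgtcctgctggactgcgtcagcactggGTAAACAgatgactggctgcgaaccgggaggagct
Ifitm1, chr7:140968098-140968125, plus strand, 28 bases: gcacaccaaattGTAAACAtaaggaagt
Sepp1, chr15:3270941-3270970, plus strand, 30 bases: tcagagggcgagGTAAACAacagggctata

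The match in Cck lay 35 bases and that in Sepp1 24 bases before a RefSeq start, with the Sepp1 match inside an exon of another annotated transcript. In Axl it lay 229 bases before the start on the other strand, and in Ifitm1 34 bases after it, in the first exon. These are matches of letters and no binding was measured. Axl, a receptor kinase, had 254 TPM in DsRed and 596 TPM in FoxO6, Cck, the peptide hormone cholecystokinin, 19.7 and 104 TPM, and Ifitm1, an interferon-induced membrane protein, 3.10 and 44.6 TPM from 1 and 32 reads, a CPM ratio of 17.7 (95% counting interval 2.95 to 719). The call of Axl did not hold with the length trend removed, where its difference was 0.98.

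Autophagy and lysosome genes, through which FoxO proteins are known to raise protein turnover, lay mostly on the higher side. Of 43 autophagy genes 38 were above 0 (60.2% of all genes), with a median difference of 0.41, while 3 were called higher (6.98%, against 4.68% of all genes) and 0 lower. Ulk1, the kinase that starts autophagy, had 18.9 TPM in DsRed and 45.4 TPM in FoxO6, Pik3c3, the lipid kinase of the next step, 8.24 and 18.7 TPM, and Wipi1, which reads its lipid product, 22.6 and 55.1 TPM. Wipi1 alone of the 3 was called with the length trend removed. Of 40 lysosome genes 37 were above 0, with 5 called higher and 0 lower, a median of 0.58 and 22 past the exact read test alone on the higher side (12.8% of all genes). Ctsl, a cathepsin protease, had 299 and 674 TPM, Ctsk, the cathepsin that cleaves collagen, 35.2 and 84.0 TPM, Gla, an alpha-galactosidase, 11.95 and 36.5 TPM, Ctsa, a protective carboxypeptidase, 127 and 255 TPM, and Npc1, the cholesterol exporter, 20.99 and 44.1 TPM. The medians of both lists stayed above that of all genes with the trend removed, at 0.39 and 0.46, while the calls of Ctsa and Npc1 did not hold.

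Genes of cell division lay mostly below 0 in FoxO6, and few were called. Of 54 genes of G2 and mitosis, 48 lay below 0, with 0 called higher, 3 called lower (2.09% of all genes) and a median difference of -0.52, and 35 passed the exact read test alone on the lower side (9.69% of all genes). Those called were Kif23, a kinesin of the cytokinetic furrow (106 and 31.6 TPM), Nuf2, a kinetochore protein (52.7 and 20.3 TPM), and Kif2c, a kinesin that corrects spindle attachment (46.2 and 20.2 TPM). The usual markers of dividing cells were not called, Mki67 having 67.8 and 51.2 TPM, Top2a 162 and 88.1 TPM, and Cdk1, the mitotic kinase, 216 and 148 TPM. Of 42 S phase genes, 32 lay below 0, with 1 called higher and 2 lower, and of 34 genes of G1 control and origin licensing 25 did, with 0 called higher and 3 lower. Cdc25b, a phosphatase that activates cyclin kinases, was called lower with 64.1 and 26.3 TPM, and Cdc45, a helicase subunit, with 38.3 and 17.9 TPM. The cyclin gene Ccnd1, at 511 and 322 TPM, and the licensing gene Mcm2, at 86.6 and 56.7 TPM, were not called. Relative to the median of all genes, the medians of the G2 and mitosis, S phase and G1 lists were -0.66, -0.42 and -0.39 as deposited and -0.68, -0.45 and -0.41 with the length trend removed. With the trend removed 6 of the G2 and mitosis genes were called lower, Top2a among them, and in CPM 6 as well.

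**Figure D3:**
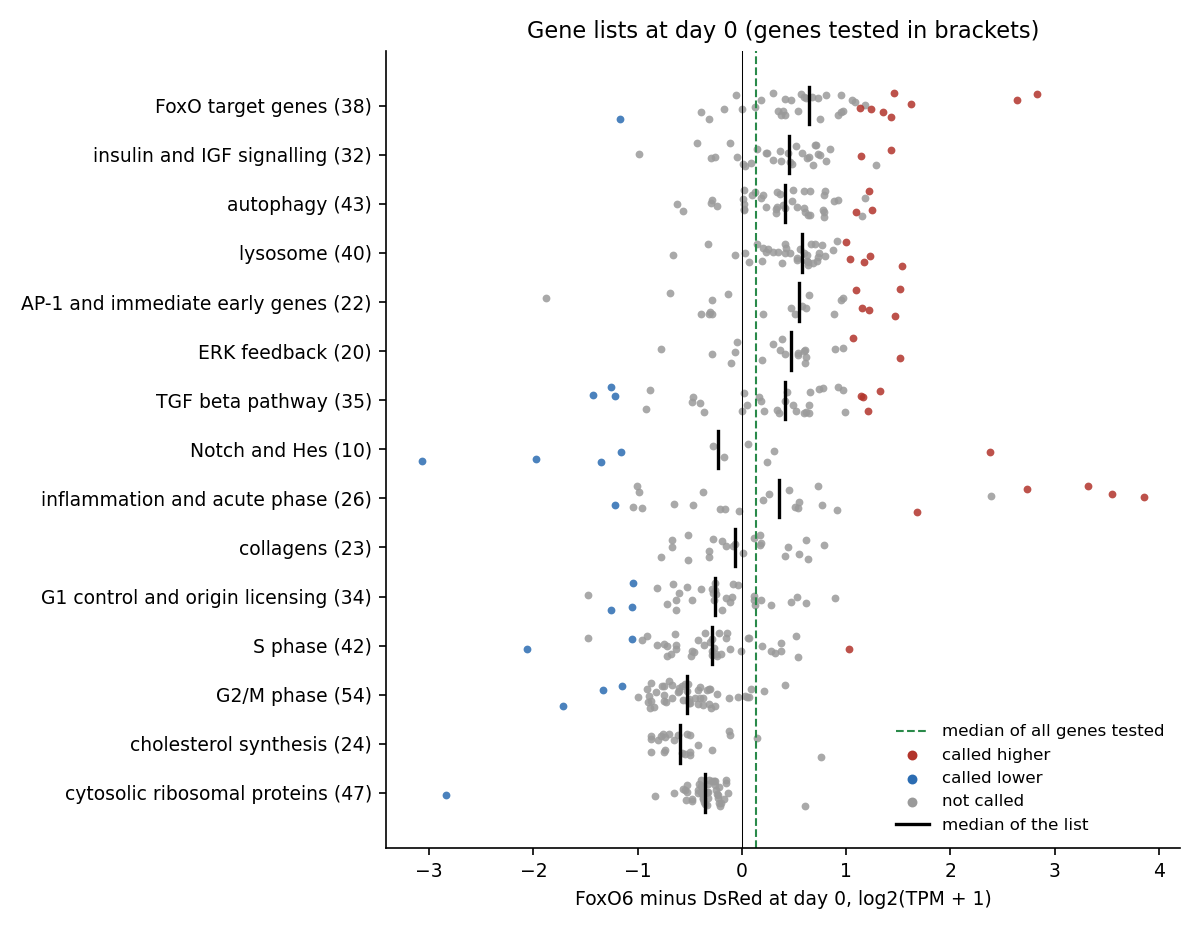
Difference in log2(TPM + 1), FoxO6 minus DsRed at day 0 (x axis), of the tested members of 15 gene lists (rows, number tested in brackets). Points are genes, red or blue where called, black bars are list medians, and the dashed line is the median of all 11410 genes at 0.13. FoxO targets (median 0.65) and lysosome genes (0.58) lie to its right, and G2/M genes (-0.52), cholesterol synthesis (-0.59) and ribosomal proteins (-0.35) to its left.

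Among 10 Notch pathway and Hes family genes tested, Hes1, Hey2, Nrarp and Lfng were called lower (2.09% of all genes) and Hey1 higher (4.68%). Hes1, the main effector of Notch, had 46.1 TPM in DsRed and 10.98 TPM in FoxO6, a difference of -1.98, and Hey2 had 45.4 and 17.1 TPM. Nrarp, a feedback inhibitor, had 12 reads in DsRed and 0 in FoxO6, which is at least 7.25-fold lower in CPM with FoxO6 set at the floor of 3 reads per library and the DsRed reads taken as exact, and 5.04-fold at the lower 95% bound with counting error in both. Lfng, a glycosyltransferase that tunes Notch, had 19.5 and 8.20 TPM, and was not called where the exact test took its expected share from equal TPM. Hey1 went the other way from 1.97 to 14.4 TPM, on 3 and 36 reads, a CPM ratio of 6.62 (95% counting interval 2.09 to 33.6).

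Genes of the TGF beta and BMP pathway were called in both directions, 4 higher (4.68% of all genes) and 3 lower (2.09%) of 35 tested. With the length trend removed 1 was called higher and 3 lower. Tgfbr2, a TGF beta receptor, had 71.9 and 182 TPM in DsRed and FoxO6, and Tgif1, a repressor of the pathway, 55.7 and 126 TPM. Id1 (62.1 and 26.2 TPM) and Id2 (90.9 and 33.1 TPM), the direct BMP targets that block differentiation factors, were called lower. The BMP antagonist Grem1 was called lower at 48.5 and 19.8 TPM. Skil, a feedback inhibitor, was called higher, with 15.6 and 37.4 TPM. The calls of Tgfbr2 and Skil did not hold with the length trend removed.

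Growth factor and guidance genes were called in both directions, 6 higher (4.68% of all genes) and 3 lower (2.09%) of 45. Beside Axl, Pdgfra and Vegfd, the growth factor genes Pdgfd and Fgf2 and the guidance gene Slit2 were called higher. Pdgfa, a ligand of Pdgfra, had 80.1 TPM in DsRed and 30.9 TPM in FoxO6, and it was called lower with Ngfr, a neurotrophin receptor, and Edn1, endothelin. With the length trend removed 2 were called higher and 3 lower, the calls of Axl, Pdgfra, Fgf2 and Slit2 not holding. Of 37 regulators of small GTPases, 6 were called higher and 0 lower (Rasa3, Arhgap20, Arhgap24, Arhgap29, Dock4 and Rab31), the calls of Arhgap20, Dock4 and Rab31 not holding with the trend removed, and of 28 Wnt pathway genes 2 were called higher, Nkd2 and Lef1, and 0 lower.

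Early response genes, which growth factors and stress switch on within minutes, were called higher in 5 of 22 (4.68% of all genes) and lower in 0 (2.09%). Egr1 had 63.8 TPM in DsRed and 185 TPM in FoxO6, Junb 83.3 and 195 TPM, Zfp36, which destabilises cytokine messages, 18.8 and 43.0 TPM, and Fos 11.3 and 25.3 TPM. Egr2 had 3 and 48 reads, a CPM ratio of 8.83 (95% counting interval 2.85 to 44.3). Fos was not called without the filter on low counts, nor Egr2 with the share implied by equal TPM. Jun, with 104 and 85.3 TPM, was not called. The 7 genes of the AP-1 group, Fos, Junb and Jun among them, had a median of -0.28, with 4 below 0 and 2 called higher. The other 15 had a median of 0.57, with 11 above 0 and 3 called higher. Of 20 ERK feedback genes 15 lay above 0, against 60.2% of all genes. The Dusp, Sprouty and Spred families among them did so in 11 of 11 without a call, with Dusp6 at 37.7 and 58.1 TPM, and the transcription factors in 4 of 9, with a median of -0.05 and 2 called higher.

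Of 26 inflammation and acute phase genes, 5 were called higher (4.68% of all genes) and 1 lower (2.09%). Il1rn, the antagonist of the interleukin-1 receptor, had 8.61 TPM in DsRed and 138 TPM in FoxO6, a difference of 3.85. Serpina3n, an acute phase protease inhibitor, had 3.87 and 56.2 TPM, on 5 and 124 reads. The kininogen genes Kng1 and Kng2 had 0 reads in DsRed and 12 and 15 in FoxO6, at least 2.21-fold and 2.76-fold higher in CPM with DsRed set at the floor of 3 reads and the FoxO6 reads taken as exact. With counting error in both libraries the lower 95% bounds were 1.53 and 1.98. Kng1 was not called with summed counts as library sizes or with the share implied by equal TPM. C1s1, a complement protease (5.99 and 21.4 TPM), was the other gene called higher, and Ptx3, a pentraxin (35.4 and 14.7 TPM), was called lower. The 23 collagens, whose transcripts are long, showed 0 calls and a median of -0.07, which was -0.38 with the length trend removed. Of 58 other matrix genes, Mgp, Omd and Nid1 were called higher (5.17%, against 4.68% of all genes) and Efemp1 lower (1.72%, against 2.09%). With the length trend removed 2 of the 58 were called higher and 3 lower. Mgp, an inhibitor of calcification, had 36.2 and 477 TPM, a difference of 3.68, and Nid1, a basement membrane linker, had 360 and 838 TPM. The call of Nid1 did not hold with the length trend removed, nor that of Omd (0 and 12 reads) with summed counts as library sizes.

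The epithelial genes that a reprogramming culture later switches on were scarcely expressed at day 0, only 4 of 25 being tested. Cdh1, E-cadherin, had 3.90 TPM from 11 reads in DsRed and 0.58 TPM from 2 reads in FoxO6, 9.97 times more in DsRed by CPM (95% counting interval 2.18 to 92.6). Krt19, a keratin of simple epithelia, had 78.2 and 30.3 TPM and was also called lower (2.09% of all genes), and Dsp, desmoplakin, was called higher (4.68% of all genes) with 4.19 and 12.6 TPM. Of 26 pluripotency genes 6 were tested and L1td1, an RNA-binding protein of stem cells, was called lower with 17.3 and 4.44 TPM. Nefl, the light neurofilament (46.7 and 8.44 TPM), and Tubb3, a neuronal tubulin (143 and 42.2 TPM), were also called lower, Nefl being named here after its values were seen. Beside these, the summed level of the 13 neural and neural crest markers was 463 TPM in DsRed and 310 TPM in FoxO6, with 6 of the 13 at 0 in both, and that of the 10 epithelial markers 105 and 51.6 TPM. Their part in these differences was not tested. The call of Dsp did not hold with the length trend removed.

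In the forkhead family itself, 18 members besides Foxo6 were tested and 3 were called, each of them higher (4.68% of all genes). Foxp1 had 55.6 TPM in DsRed and 174 TPM in FoxO6, and Foxn3 4.54 and 23.6 TPM. Foxo1, the best studied FoxO, had 3.24 and 7.48 TPM, a difference of 1.00 at the threshold, and was not called with the length trend removed. Foxo3 (16.0 and 16.3 TPM) and Foxo4 (21.2 and 20.5 TPM) lay close together. Of the 10 histone deacetylases tested, Hdac9 was called higher, with 0.59 and 3.34 TPM on 3 and 25 reads, a CPM ratio of 4.60 (95% counting interval 1.40 to 23.8), and its call too did not hold with the trend removed.

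By the rule for named genes, 15 genes were taken in each direction, and most are numbered gene models or pseudogenes whose reads can be shared with a near-identical copy, so they are not described. The genes beyond Foxo6 and Sepp1 were filled in from the exact read test and 2-fold rule alone. Those with plain names beside Foxo6 and Sepp1 were Zbed6, Rpgrip1, Pakap and Sprr3. Zbed6 had 0 reads in DsRed and 87 in FoxO6, but it lies within Zc3h11a, and on days 1, 3, 5 and 7 its difference was -3.42, 4.04, 1.72 and -2.98. Rpgrip1 (13 and 0 reads), Pakap (21 and 0 reads) and Sprr3 (21 and 3 reads) were called lower, and each had the opposite sign on at least 1 later day. Rpl10, at 1545 and 215 TPM the only one called among 47 cytosolic ribosomal protein genes tested, has pseudogene copies and differed by 0.07, 0.49, -1.14 and 1.79 on days 1, 3, 5 and 7.

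The difference at day 0 was tied to transcript length. In 5 equal bins of effective length, the stretch of a transcript from which reads can start, the median difference went from -0.09 in the shortest (median length 1072 bases) through 0.02, 0.14 and 0.22 to 0.36 in the longest (5469 bases). The share called higher went from 2.85% to 9.12% over the same bins and the share called lower from 3.51% to 1.32%. Across genes Spearman's rho between length and difference was 0.27 at day 0, and on days 1, 3, 5 and 7 it was 0.005, 0.04, 0.06 and -0.28, given as a description since genes share their library. With 1 pair of libraries, the arm and the libraries' other differences, depth among them, cannot be told apart. After removal of a smooth trend with length, 491 of the 772 calls remained in the same direction, 285 higher and 206 lower.

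**Figure D4:**
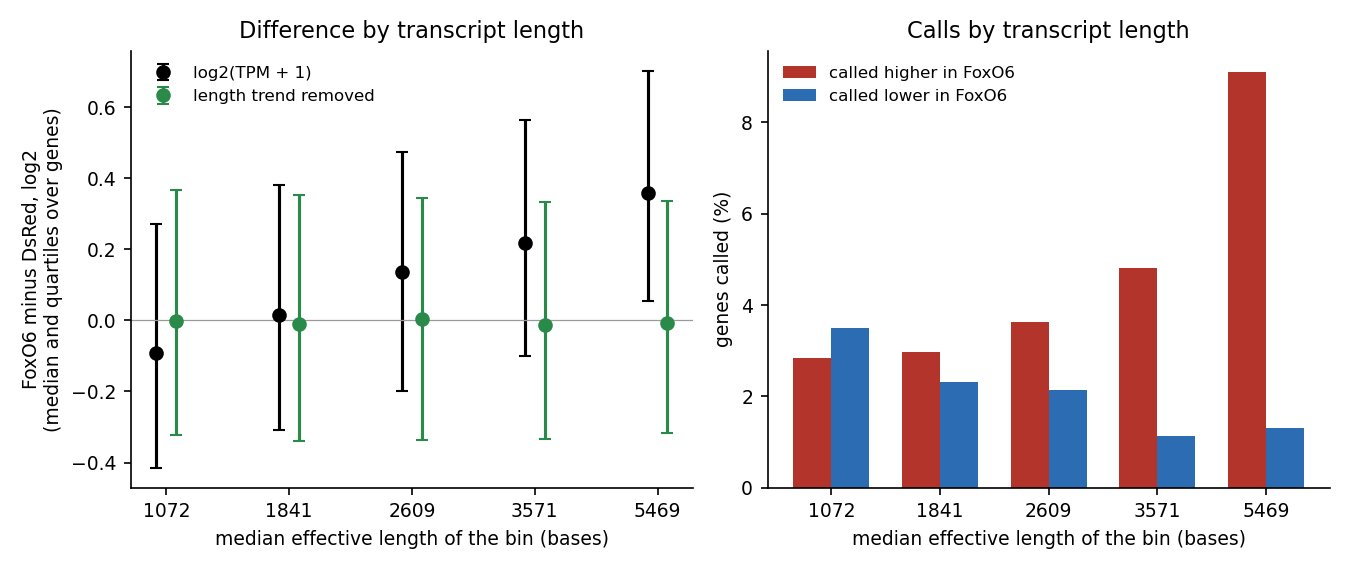
Left, the difference in log2(TPM + 1) between FoxO6 and DsRed at day 0 by bin of effective length (x axis, median length of each of 5 bins), as deposited (black) and with the length trend removed (green), where points are medians and bars the quartiles over genes. Right, the percentage of genes called in each bin. The median rises from -0.09 to 0.36 and the share called higher from 2.85% to 9.12%.

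The later days share no library with day 0, so they give a second look at the same genes. Of the 534 genes called higher, 74.0%, 72.1%, 77.0% and 49.6% were above 0 on days 1, 3, 5 and 7, against 51.0%, 52.3%, 53.7% and 41.6% of all genes tested. Their median differences were 0.50, 0.47, 0.50 and 0, and 27.5%, 23.8%, 28.8% and 20.6% were at least 2-fold higher on those days, against 5.31%, 5.59%, 7.69% and 6.08% of all genes. The values for day 7, which had a length trend of its own, depended on the scaling: the median was 0.33 and the share above 0 63.9% with the trend removed, and 0.16 and 55.6% in CPM. Of the 238 called lower, 76.1%, 69.8%, 65.6% and 67.7% were below 0, against 48.7%, 47.4%, 46.0% and 58.0% of all genes, with medians of -0.47, -0.53, -0.35 and -0.40, and 35.3%, 34.5%, 23.5% and 23.9% at least 2-fold lower against 5.49%, 6.45%, 5.99% and 12%. On all 4 later days, 46 of the 534 stayed at least 2-fold higher (8.61%, against 0.745% of all genes tested) and 23 of the 238 at least 2-fold lower (9.66%, against 0.701%). Counts over genes do not stand for replicates.

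The genes 2-fold apart on all 5 days, named here after their values were seen, included many already described. Sepp1 widened from 2.64 at day 0 to 4.38, 3.95, 3.86 and 4.12 on days 1, 3, 5 and 7, and Il1rn went from 3.85 to 3.21, 4.43, 5.09 and 6.59. Gadd45a had 2.83, 3.06, 2.73, 1.74 and 1.76. The neighbouring genes Tnfrsf22, Tnfrsf23 and Tnfrsf26 of the TNF receptor superfamily, on chromosome 7, were all in this set, Tnfrsf23 with 33.3 TPM in DsRed and 180 TPM in FoxO6 at day 0. Vegfd, a growth factor of lymph vessels, had 1.63 at day 0 and at least 2.75 later. Pros1, the anticoagulant protein S, had 61.6 and 185 TPM at day 0, and Axl and Pros1 both stayed 2-fold higher throughout. On the lower side, Hey2, Id1, Id2, Krt19 and Cdh1 stayed at least 2-fold lower on each day, as did Crabp2, a carrier of retinoic acid (237 and 72.3 TPM at day 0), and Lgr6, a stem cell receptor (15.9 and 5.35 TPM). Not all epithelial genes went with Krt19 and Cdh1. Cldn1, a tight junction gene, was higher in FoxO6, by 3.25 at day 0 on 0 and 30 reads, and by at least 1.9 on each later day.

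**Figure D5:**
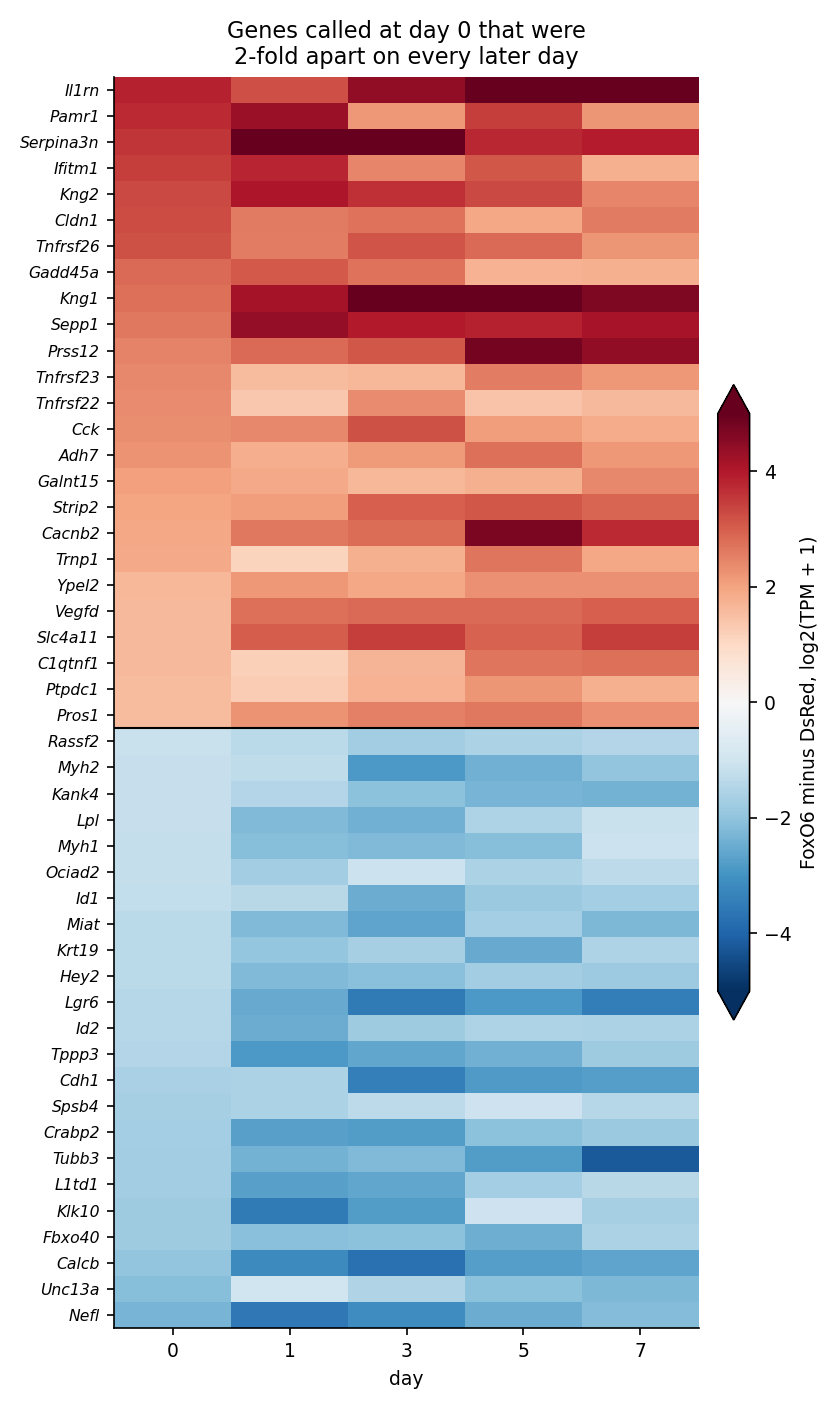
Difference in log2(TPM + 1), FoxO6 minus DsRed (colour, saturating at 5 in either direction), at days 0, 1, 3, 5 and 7 (columns, 1 library per arm each) for genes called at day 0 and at least 2-fold apart in that direction on every later day. The upper rows are the 25 largest at day 0 of those called higher, Foxo6 left out, and the lower rows the 23 called lower. The colours deepen after day 0 for Sepp1, Vegfd and Lgr6 among others.

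Changes in the arm difference between day 0 and the later days, in whichever direction, were harder to establish. In the edgeR test of the day 0 difference against the later one, 0 of 11028 genes passed after adjustment (0%), 710 had an unadjusted p under 0.05 (6.44%), and DESeq2 called 2, Slc16a3 and Tet2. Tet2, an enzyme that oxidises methylcytosine, had 7.19 TPM in DsRed and 27.7 TPM in FoxO6 at day 0, a difference of 1.81 that was called, and 0.11, -0.51, -0.11 and -1.29 later. Slc16a3, a lactate exporter, was the reverse, not called at day 0 with 18.2 and 12.3 TPM and with differences of -2.04, -2.52, -3.54 and -5.18 later. F2rl1, a protease-activated receptor, was the only gene called at day 0 with a 2-fold difference in the opposite direction on every later day, with 4.60 and 12.8 TPM on 8 and 38 reads at day 0 and differences from -1.40 to -2.23 afterwards, though its day 0 call did not hold with the length trend removed, without the filter on low counts or with summed counts as library sizes. Cdc25b, Ulk1 and Foxp1 were called at day 0, and their later differences ran from -0.49 to -0.15, from -0.26 to 0.32 and from -0.02 to 0.95.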

How the data were processed

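RNA-seq of MEFs gave 10 libraries, 1 at each of days 0, 1, 3, 5 and 7 for cells given OKS with FoxO6 and for cells given OKS with DsRed. Per the submitters' processing notes the authors used RSEM, Bowtie2 and mm10, and the study's methods name the GENCODE M13 transcriptome, while tool versions are not given in the sources used here. The expected count of each gene, which the authors deposited, is RSEM's estimate of its reads and is not normalized, and it was rounded to whole numbers before each count test. The TPM values, also as deposited, divide these counts by effective length and scale each library to the same total. A series-wide table held the same counts (48476 shared genes, largest difference 0), and 0 of its per-sample columns lacked a sample.

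Genes with at least 10 expected counts in the higher day 0 library entered an exact two-sided binomial test on rounded counts against TMM-scaled library sizes, with Benjamini-Hochberg adjustment over all 11410. Differences are of log2(TPM + 1), FoxO6 minus DsRed, so the pseudocount of 1 understates the change of low genes. The edgeR 4.0.16 quasi-likelihood model (R 4.3.3) took all 10 libraries, with day, an arm effect of day 0 and an arm effect shared by the 4 later days. The adjusted p threshold was 0.05 throughout. The depth of the day 0 pair, 1208379 and 2225750 counts, limits precision for genes with few reads, and intervals and floors of 3 reads cover counting error only, since the reads carry no molecular identifiers in these files.

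The members, gene lists and tests were chosen with earlier results of these data known. By rule, up to 15 called genes in each direction with the largest difference were named where they bear a plain symbol, together with members of the lists, the marker genes and the 10 genes of smallest p for day 0 against later days. Coordinates are from GENCODE M21 on GRCm38. Tested on simulated data, the exact test recovered 169 of 200 genes changed 4-fold, with 7 false calls among 11410 genes, and the edgeR model's day 0 effect 144 of 200, with 7 false calls among 11219. For the exact test the simulated reads held counting error alone, and the 2-fold rule was not applied. For edgeR they held a common dispersion and no arm effect on later days, and neither simulation held a length trend. These rates therefore do not carry over to the real libraries. Alternatives changed the pseudocount, unit, filter, library size, length trend, tool, size factors and days in the model. Some results are not reported here.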

Additional observations from a re-analysis of the deposited data

How the results depend on the processing

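Calls by the exact read test numbered 534 higher and 238 lower, and both counts stayed within 1.5 times under a pseudocount of 0.1, CPM, no filter, summed library sizes and sizes implied by TPM. With at least 30 counts, which tests fewer genes, 119 were called lower, and with the length trend removed 302 were called higher. Of 102 called genes named in the text, Cldn1 not counted, 75 kept their call under each of 7 alternatives that tested them, 86 of the 102 being tested at 30 counts, and 22 lost it with the length trend removed. In CPM 7 lost it (Ctsa, Npc1, Rab31, Skil, Slit2, Tsc1 and Ulk1). The sign turned for 4 genes that were not called: in CPM Akt1 had -0.077, Cdkn1b -0.055, Foxo3 -0.056 and Meg3 0.0040, and with the trend removed Akt1 had -0.10 and Foxo3 -0.40. The edgeR model's 2 genes at day 0 became 10 by DESeq2, 1 with RLE size factors and 134 with no filter, and leaving out 1 later pair gave from 1 to 22, the 22 without the day 7 pair. A model with an arm effect shared by all 5 days, which tests the course and not day 0, called 1538. For day 0 against the later days the 0 genes became 2 by DESeq2 and 112 with no filter, and stayed 0 without any 1 later pair. The causes were not tested. Centring the difference and counting plainly named genes alone (458 higher, 199 lower) were chosen after seeing the data. No paired analysis was possible because the labels give no replicate numbers to use as a block, though day is a term in every edgeR model, so arms are compared within days. Depth limits genes with few reads.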

Other observations

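Cholesterol synthesis genes lay on the lower side in FoxO6 at day 0. Of 24 tested, 22 were below 0, the median difference was -0.59, and 19 passed the exact read test alone on the lower side (9.69% of all genes) against 1 on the higher (12.8%), with 0 of the 24 called at 2-fold. With the length trend removed 2 were called lower, Idi1 among them. Hmgcs1, the synthase at the head of the pathway, had 300.2 TPM in OKS + DsRed and 179 TPM in OKS + FoxO6, Idi1, an isomerase of the same pathway, 295 and 161 TPM, and Fdps, farnesyl diphosphate synthase, 750 and 409 TPM. The genes of cytosolic ribosomal proteins, which have short transcripts, lay below 0 in 46 of 47, with a median of -0.35, and -0.19 with the length trend removed. Rps2 had 3859 TPM in DsRed and 2997 TPM in FoxO6, and 42 of the 47 passed the exact read test alone on the lower side.

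Genes of amino acid synthesis and the integrated stress response were called in both directions, 3 of 40 each way (7.5%, against 4.68% of all genes called higher and 2.09% called lower). Slc7a11, the cystine importer, had 14.9 TPM in DsRed and 49.5 TPM in FoxO6, and Cebpb, a transcription factor, 38.6 and 84.6 TPM, while Chac1, which degrades glutathione, rested on 3 and 26 reads. Phgdh, the first enzyme of serine synthesis, had 196 and 96.2 TPM, and Pycr1, of proline synthesis, and Cth, of cysteine synthesis, were the other genes called lower.

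Of the 10 genes with the smallest p for day 0 against the later days, Ntn4, a netrin, was 0.85 higher in FoxO6 at day 0 and between 2.34 and 3.07 higher afterwards, and Meg3, a long noncoding RNA, differed by -0.20 at day 0 and between -1.47 and -1.96 afterwards. Neither passed the edgeR test after adjustment.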
